A study of Mus musculus with 8 samples.

Results

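The genes described here are the nuclear-encoded genes of the mitochondrial respiratory chain and ATP synthase. They were taken by gene symbol, from rows that start with Ndufa, Ndufb, Ndufc, Ndufs or Ndufv, with Sdha to Sdhd, with Uqcr, with Cox4 to Cox8 or with Atp5, and that had 10 or more counts in 2 or more libraries. Of 94 names with these prefixes, 85 met the count rule, among 12296 names of the table that met it and 30419 names in all. By symbol, 43 belonged to complex I, 6 to complex II, 8 to complex III, 12 to complex IV and 16 to complex V. The symbols matched 74 subunits, 9 assembly factors (7 Ndufaf and 2 Sdhaf genes) and 2 genes, Atp5s and Atp5sl, that share the prefix but encode no subunit.

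RNA came from early-passage mouse embryonic fibroblasts (MEFs) of E13.5 embryos. The 4 groups were WT (Dino+/+) or mutant (DINO loxP/loxP) cells, each given vehicle or doxorubicin at 0.2 µg/mL for 8 h, with 2 libraries per group, lettered A and B. Dino is a long noncoding RNA gene next to Cdkn1a that is induced by DNA damage, and doxorubicin is a DNA-damaging topoisomerase inhibitor. The sources used here do not say that A and B are separate embryos or cultures, so p-values measure the spread between these libraries, which may be technical.

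The respiratory chain sits in the inner mitochondrial membrane. Complex I oxidises NADH and complex II succinate, both pass electrons through coenzyme Q to complex III, cytochrome c carries them on to complex IV, where oxygen is reduced, and complex V (ATP synthase) uses the resulting proton gradient to make ATP. Most subunits are nuclear genes, a few core subunits of complexes I, III, IV and V come from mitochondrial DNA (not analysed here), and the transcription factors NRF1 and GABP (an ETS factor) are textbook regulators of the nuclear set.

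Promoters are printed for 4 genes with large responses that also held a match to an NRF1 or ETS motif. They run from 250 bases before to 50 bases after the transcription start, 5′ to 3′ on the gene's strand, from RefSeq on build GRCm38.p6, with the motif match in capitals. Ndufaf4, a complex I assembly factor that fell in both genotypes, lies at chr4:24897833-24898132 on the plus strand and its NRF1 match starts at position -113. Ndufa11, an accessory subunit of the complex I membrane arm that rose, lies at chr17:56717512-56717811 on the plus strand and its NRF1 match starts at -60. Ndufb6, another membrane-arm subunit that rose, lies at chr4:40279372-40279671 on the minus strand with an ETS match at -232, and Sdhaf1, an assembly factor of complex II that rose, lies at chr7:30322326-30322625 on the minus strand with an ETS match at 8.
Ndufaf4: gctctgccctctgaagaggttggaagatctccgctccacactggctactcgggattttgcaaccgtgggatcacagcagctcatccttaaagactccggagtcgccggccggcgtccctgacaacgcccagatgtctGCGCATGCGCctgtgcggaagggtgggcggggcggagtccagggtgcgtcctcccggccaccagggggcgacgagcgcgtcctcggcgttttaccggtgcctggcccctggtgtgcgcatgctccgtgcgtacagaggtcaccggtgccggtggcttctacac
Ndufa11: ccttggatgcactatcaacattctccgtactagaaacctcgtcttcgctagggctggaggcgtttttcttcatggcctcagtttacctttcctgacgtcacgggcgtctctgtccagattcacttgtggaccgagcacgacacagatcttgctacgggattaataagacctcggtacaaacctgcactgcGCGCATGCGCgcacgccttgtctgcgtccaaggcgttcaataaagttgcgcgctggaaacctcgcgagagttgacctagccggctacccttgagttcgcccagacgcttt
Ndufb6: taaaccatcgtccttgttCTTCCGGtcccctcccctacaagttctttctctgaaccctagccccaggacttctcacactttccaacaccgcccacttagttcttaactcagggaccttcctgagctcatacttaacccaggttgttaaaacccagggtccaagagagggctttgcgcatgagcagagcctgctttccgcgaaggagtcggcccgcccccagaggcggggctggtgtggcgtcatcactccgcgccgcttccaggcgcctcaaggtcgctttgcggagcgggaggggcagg
Sdhaf1: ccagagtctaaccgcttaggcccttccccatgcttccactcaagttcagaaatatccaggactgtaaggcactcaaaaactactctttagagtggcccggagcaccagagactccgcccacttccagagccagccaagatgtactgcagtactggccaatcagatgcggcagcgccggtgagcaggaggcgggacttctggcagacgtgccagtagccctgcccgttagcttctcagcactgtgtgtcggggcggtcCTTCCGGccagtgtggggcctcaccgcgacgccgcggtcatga

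Promoters were found for 73 of the 85 genes. The NRF1 motif, searched on both strands as the letters in capitals in Ndufaf4 and Ndufa11 with any base allowed after GCGCA, was present in 17 of these 73 promoters (23.3%), compared with 11.6% of the 9509 promoters of genes that met the same count rule and 5.19% of all 27025 genes with a promoter. The YY1 motif, AANATGGC on both strands, was present in 20 (27.4%), compared with 10.1% and 6.96%. The ETS motif, CCGGAAG on both strands, was present in 19 (26%), compared with 20% and 9.93%. Of the genes with a promoter, the NRF1 motif was held by 3 of the 3 that fell in WT cells with doxorubicin (Ndufaf4, Ndufaf5 and Atp5c1). It was held by 5 of the 30 that rose and by 9 of the 39 that did neither. In the same order, the ETS motif was held by 0, 7 and 12, and the YY1 motif by 0, 6 and 13. This split was counted for WT calls only. Of the genes that fell in mutant cells only, Sdha held the NRF1 motif and Sdhb the ETS motif without the NRF1 motif. No match was found for Ndufv2, which may lack a promoter here. The share among all genes that fell was not counted, and a link between motif and response was not tested. A motif match is a description of letters and not evidence of binding.

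Total counts ranged from 25482805 to 33285171 per library, and the 85 genes took 0.213% to 0.232% of the counts of control libraries and 0.247% to 0.270% of those of doxorubicin libraries. Levels are given as CPM (counts over the TMM-scaled library size), in the order A and B, and 3 counts correspond to 0.0880 to 0.120 CPM. Fibroblast markers were high in all libraries, with 14 of 14 tested and a summed level of 6040 to 6690 CPM. Of 20 muscle markers, 15 stayed under 10 counts in every library, and the list summed to 4.43 to 6.66 CPM. Macrophage markers summed to 35.9 to 36.6 CPM in WT controls, 49.9 to 50.7 in WT doxorubicin, 44.3 to 45.6 in mutant controls and 52.0 to 58.5 in mutant doxorubicin libraries, so they moved with the treatment, and their part in the results was not tested. Xist was at 0.232 to 0.376 CPM in the WT libraries and at 212 to 575 CPM in the mutant libraries, so genotype cannot be told apart from this X-linked difference. In bulk RNA, fewer cells of a type and less RNA per cell cannot be told apart.

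The first comparison asked how doxorubicin changed these genes in WT cells. Genes of complexes I and IV rose most often, while assembly factors moved both ways. By edgeR's quasi-likelihood test with Benjamini-Hochberg adjustment over 12255 genes (adjusted p under 0.05), 32 of the 84 genes tested rose, 4 fell and 48 did not pass. Of all genes tested, 29.3% rose and 28.1% fell, compared with 38.1% and 4.76% of these genes, whose median log2 fold change was 0.19 compared with 0.01 for all genes. Averaged over both genotypes, 39 rose (33.7% of all genes) and 8 fell (32.6%). Leaving out WT control A gave the fewest rises, 23, and with upper-quartile scaling 26 rose and 7 fell.

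The mutant cells gave similar counts in the same contrast. There, 33 of the 84 genes rose, 6 fell and 45 did not pass, compared with a background of 28.3% and 25.9%, and the median log2 fold change was 0.22 compared with 0.01 for all genes. Leaving out mutant control A lowered the rises to 22, and leaving out mutant control B lowered the falls to 3. The WT and mutant contrasts share no library, but 1 fit over all 8 libraries with a shared spread gave both, so their calls are not fully independent. In both genotypes 27 genes rose and 3 fell (Ndufaf4, Ndufaf5 and Atp5c1), 6 were called in WT only, 9 in the mutant only and 39 in neither, and none was called in opposite directions. Of all 12255 genes tested, 3038 rose and 2806 fell in both genotypes. A further 1191 were called in WT only, 800 in the mutant only, 4418 in neither and 2 in opposite directions. Across the 84 genes the 2 responses had a Pearson r of 0.899 and a Spearman rho of 0.814, against 0.908 and 0.887 across all 12255 genes tested. Genes are not independent replicates.

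**Figure D1:**
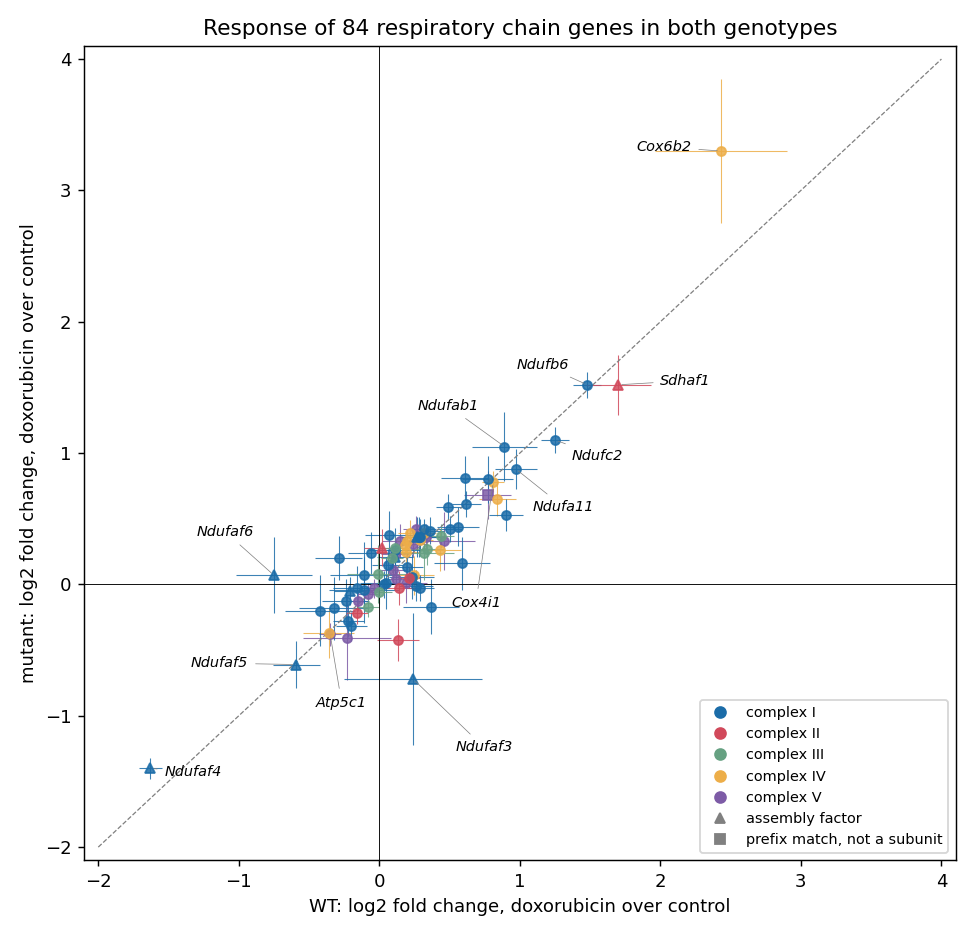
Log2 fold change with doxorubicin in WT (horizontal axis) and mutant (vertical axis) cells for the 84 genes tested; bars are standard errors, colours are complexes, and triangles are assembly factors. Most genes lie near the dashed line of equal response, with Ndufb6, Ndufc2, Sdhaf1 and Cox6b2 far above 0 and Ndufaf4 far below it in both genotypes.

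Of the 36 complex I subunits, 15 rose and none fell in WT cells (median log2 fold change 0.27). In mutant cells 14 rose and 1 fell (median 0.22). The shares that rose were 41.7% and 38.9%, beside 29.3% and 28.3% of all genes. Leaving out single libraries gave medians of 0.24 to 0.28 in WT and 0.15 to 0.30 in mutant cells. The subunits' summed level was 351 and 372 CPM in WT controls, 503 and 485 in WT doxorubicin, 356 and 384 in mutant controls and 487 and 519 in mutant doxorubicin libraries. The control and doxorubicin libraries did not overlap in this sum. Without WT doxorubicin B, 2 of these subunits passed as lower in WT cells, and without WT control A 1 did.

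Ndufb6, a small subunit of the membrane arm, was at 14.6 and 16.5 CPM in WT controls, 44.5 and 42.5 in WT doxorubicin, 14.0 and 16.2 in mutant controls and 41.3 and 45.1 in mutant doxorubicin libraries. Every treated library was above every control. The log2 fold change was 1.48 ± 0.10 (SE, n = 2 per group; edgeR adjusted p = 2.87e-11) in WT and 1.52 ± 0.10 (edgeR adjusted p = 2.99e-11) in mutant cells. An exon of Ndufb6 overlaps Smim27 on the other strand in the GRCm38 annotation, and the strand setting of the counting is not given in the sources used here.

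Ndufc2, a membrane-arm subunit with no overlapping exon, was at 23.7 and 23.9 CPM in WT controls, 62.4 and 51.1 in WT doxorubicin, 24.5 and 27.7 in mutant controls and 53.0 and 58.7 in mutant doxorubicin libraries. Treated and control libraries did not overlap in either genotype, and the log2 fold changes were 1.25 ± 0.10 in WT and 1.10 ± 0.10 in mutant cells (edgeR adjusted p = 5.74e-10 and 5.84e-09). Its partner Ndufc1 was nearly level, at 0.05 ± 0.19 and 0.01 ± 0.20, and passed in neither genotype. Ndufa11 was at 7.10 and 5.81 CPM in WT controls, 11.8 and 13.4 in WT doxorubicin, 6.31 and 8.95 in mutant controls and 12.9 and 15.1 in mutant doxorubicin libraries. It rose by 0.97 ± 0.15 and 0.88 ± 0.15 on the log2 scale (edgeR adjusted p = 1.03e-05 and 3.64e-05). Its exons overlap those of Vmac on the other strand.

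Ndufa13, also known as a cell death regulator (GRIM-19), was at 5.83 and 5.99 CPM in WT controls, 11.2 and 10.9 in WT doxorubicin, 7.10 and 8.03 in mutant controls and 11.1 and 10.7 in mutant doxorubicin libraries. Its log2 fold change was 0.90 ± 0.12 in WT and 0.53 ± 0.12 in mutant cells (edgeR adjusted p = 2.02e-06 and 0.000936), and the difference of -0.37 ± 0.17 did not pass (edgeR adjusted p = 0.854). Ndufab1, the mitochondrial acyl carrier protein, was at 1.52 and 1.53 CPM in WT controls and 2.82 and 2.85 in WT doxorubicin, and at 1.30 and 0.983 in mutant controls and 1.88 and 2.85 in mutant doxorubicin libraries. It rose by 0.89 ± 0.23 and 1.05 ± 0.26 on the log2 scale (edgeR adjusted p = 0.00263 and 0.00176), but without mutant doxorubicin B the mutant change was 0.72 and did not pass (edgeR adjusted p = 0.0672). Among further subunits that rose in both genotypes were Ndufb2 (log2 fold change 0.77 and 0.80), Ndufb3 (0.62 and 0.61), Ndufa9 (0.50 and 0.42) and Ndufs4 (0.49 and 0.59). The WT change of Ndufb2 was 0.50 without WT control A and 1.15 without WT control B, and its exons overlap those of Gm42420 on the same strand and of Braf and Gm16272 on the other. Ndufa4, counted here by symbol although its protein is now placed with complex IV, rose by 0.32 ± 0.08 and 0.42 ± 0.08 (edgeR adjusted p = 0.00117 and 7.93e-05).

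Some complex I calls rested on single libraries. In WT, the X-linked Ndufa1 (0.59) lost its call without WT control A or WT doxorubicin A (adjusted p = 0.0888 and 0.114), and Ndufa6 (0.61) without WT control A or WT doxorubicin B (0.0652 and 0.135). Ndufb5 (0.29) lost it without WT control A or WT doxorubicin B (0.109 and 0.0572), and Ndufa5 (0.36) without WT control A (0.0555). In mutant cells Ndufa12 (0.44) lost it without mutant control A, mutant control B or mutant doxorubicin B (0.0668, 0.0793 and 0.182). Ndufb7 (0.36) lost it there without mutant control A, mutant doxorubicin A or mutant doxorubicin B (0.276, 0.103 and 0.103), and Ndufa5 (0.41) without mutant doxorubicin B (0.0505). Ndufa6 kept its mutant call (0.81, edgeR adjusted p = 0.000372) whichever library was left out.

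Within complex I the rises were unevenly spread over the symbol families. Of 14 Ndufa genes 9 rose in WT and 8 in mutant cells (64.3% and 57.1%), and of 10 Ndufb genes 4 rose in each (40.0%). Of 7 Ndufs genes 1, Ndufs4, rose in each genotype (14.3%), and of 3 Ndufv genes none did. The shares of all genes that rose were 29.3% and 28.3%, and these families are small. Leaving out single libraries gave Ndufa medians of 0.38 to 0.53 in WT and 0.31 to 0.49 in mutant cells. The difference between families was not tested, and without mutant doxorubicin B 5 Ndufa genes rose in the mutant. Ndufs1, a core subunit that carries iron-sulphur clusters, stood at 26.2 and 30.5 CPM in WT controls and 31.7 and 26.5 in WT doxorubicin, and at 26.6 and 24.8 in mutant controls and 25.4 and 25.8 in mutant doxorubicin libraries. Its groups overlapped in both genotypes, and the changes were 0.03 ± 0.10 and 0.00 ± 0.10. Ndufv2 fell by 0.32 in mutant cells (edgeR adjusted p = 0.0192), a call that was lost without mutant control B (0.152) or mutant doxorubicin A (0.141). Ndufs5, a small accessory subunit, was listed at 0 in all 8 libraries and so is not among the 85 genes. Whether the annotation used for counting could assign reads to it is not given in the sources used here, so the 0 is not read as a level.

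Complex I assembly factors included the clearest fall. Ndufaf4 was at 94.0 and 90.1 CPM in WT controls, 29.5 and 30.0 in WT doxorubicin, 96.3 and 90.2 in mutant controls and 36.5 and 34.3 in mutant doxorubicin libraries. Treated and control libraries were far apart, and it fell 3.09-fold in WT (log2 -1.63 ± 0.08, edgeR adjusted p = 1.84e-13) and 2.63-fold in mutant cells (log2 -1.40 ± 0.08, edgeR adjusted p = 2.67e-12). Ndufaf5, which modifies Ndufs7, was at 4.57 and 4.11 CPM in WT controls, 2.95 and 2.79 in WT doxorubicin, 3.91 and 3.80 in mutant controls and 2.52 and 2.53 in mutant doxorubicin libraries. It fell by 0.59 ± 0.17 and 0.61 ± 0.18 on the log2 scale (edgeR adjusted p = 0.00469 and 0.00695).

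The other complex I assembly factors gave weaker or unequal values. Ndufaf6 was at 1.93 and 1.61 CPM in WT controls and 1.09 and 1.00 in WT doxorubicin, and at 1.27 and 1.08 in mutant controls and 1.44 and 1.03 in mutant doxorubicin libraries. It fell in WT by 0.75 ± 0.27 (edgeR adjusted p = 0.0229), a call lost without WT control A, WT doxorubicin A or WT doxorubicin B (adjusted p = 0.128, 0.0543 and 0.0964). The mutant change was 0.07 ± 0.29, and the difference of 0.82 ± 0.40 did not pass (edgeR adjusted p = 0.876). Ndufaf7 was called higher in mutant cells (0.36 ± 0.15, edgeR adjusted p = 0.0451), at the edge of the threshold, and leaving out any library but mutant control A ended that call (adjusted p = 0.0516 to 0.290). Ndufaf1 (0.11 and 0.21), Ndufaf2 (-0.21 and -0.05) and Ndufaf3 (0.24 and -0.72) passed in neither genotype. Ndufaf3 had 7 to 18 counts and was, with Atp5sl (3 to 17 counts), just inside the count rule, and Atp5g2 (1 to 9 counts) was just outside it.

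**Figure D2:**
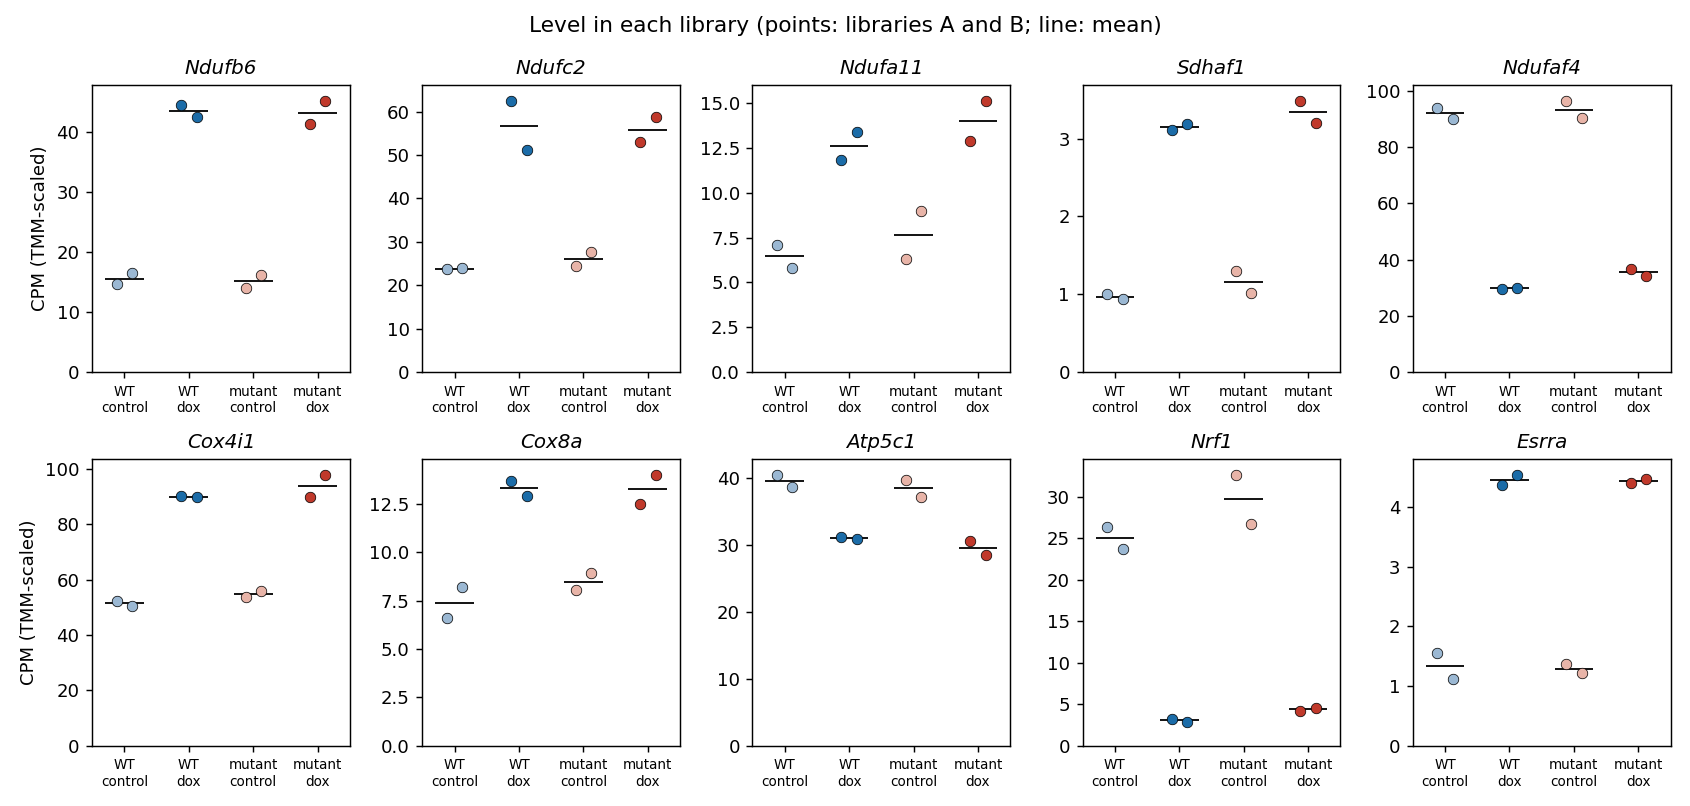
CPM in each library for 8 genes of the chain or its assembly and for the transcription factor genes Nrf1 and Esrra, by group; points are libraries A and B, lines are means and every axis starts at 0. In all 10 genes the treated and control libraries of a genotype do not overlap, with Ndufaf4, Atp5c1 and Nrf1 lower and the other 7 higher after doxorubicin. All 10 genes shown were called in both genotypes, so this separation is not further support.

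Complex II, which also serves the citric acid cycle, had small changes in its 4 subunits. Their summed level was 171 and 176 CPM in WT controls, 184 and 170 in WT doxorubicin, 172 and 172 in mutant controls and 154 and 167 in mutant doxorubicin libraries. In WT cells Sdhd, a membrane anchor, was called higher (0.21 ± 0.08, edgeR adjusted p = 0.0388), and without WT control A, WT control B, WT doxorubicin A or WT doxorubicin B the adjusted p was 0.0977, 0.151, 0.102 or 0.0642. In mutant cells the flavoprotein Sdha (-0.22 ± 0.08) and the iron-sulphur subunit Sdhb (-0.42 ± 0.16) were called lower (edgeR adjusted p = 0.0290 and 0.0360). The Sdha call was lost without mutant control A, mutant control B or mutant doxorubicin B (0.156, 0.0629 and 0.178), and the Sdhb call without mutant control A, mutant control B or mutant doxorubicin A (0.0790, 0.142 and 0.372).

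Sdhaf1, which helps insert the iron-sulphur clusters of Sdhb, was at 1.00 and 0.939 CPM in WT controls, 3.11 and 3.19 in WT doxorubicin, 1.30 and 1.02 in mutant controls and 3.48 and 3.20 in mutant doxorubicin libraries. All treated libraries were above all controls. It rose 3.25-fold in WT (log2 1.70 ± 0.23, edgeR adjusted p = 1.54e-06) and 2.87-fold in mutant cells (log2 1.52 ± 0.23, edgeR adjusted p = 6.46e-06). Its exons overlap those of E130208F15Rik on the other strand. Sdhaf2, which helps attach flavin to Sdha, changed by 0.02 ± 0.13 and 0.28 ± 0.14 and passed in neither genotype.

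Complex III had 2 rises among 8 subunits in WT and 3 in mutant cells (25% and 37.5%, beside 29.3% and 28.3% of all genes), with medians of 0.10 and 0.22. The WT median was 0.16 without WT doxorubicin A, and the mutant median was 0.11 without mutant control A or mutant doxorubicin B. Its summed level was 207 and 207 CPM in WT controls, 225 and 224 in WT doxorubicin, 205 and 217 in mutant controls and 227 and 242 in mutant doxorubicin libraries. Uqcr10, a small subunit, was at 23.7 and 25.2 CPM in WT controls, 33.7 and 32.6 in WT doxorubicin, 26.0 and 26.1 in mutant controls and 33.9 and 33.4 in mutant doxorubicin libraries. It rose by 0.44 ± 0.09 and 0.37 ± 0.09 (edgeR adjusted p = 0.000150 and 0.000983). The other calls rested on single libraries. Uqcrq was called in WT (0.34, edgeR adjusted p = 0.0148) but not without WT control A (0.129) or WT doxorubicin A (0.0783). Uqcrb was called in mutant cells (0.28, edgeR adjusted p = 0.00743) but not without mutant control A (0.113) or mutant doxorubicin B (0.125). Uqcrh, the hinge protein, was called in mutant cells (0.20, edgeR adjusted p = 0.0462) a call that 5 of the 8 omissions ended, namely either WT control, either mutant control and mutant doxorubicin B (adjusted p = 0.0540 to 0.275). The catalytic Rieske protein Uqcrfs1 was at 34.8 and 35.8 CPM in WT controls and 37.0 and 33.5 in WT doxorubicin, and changed by 0.00 ± 0.09 in WT and -0.06 ± 0.09 in mutant cells.

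Complex IV, cytochrome c oxidase, had the largest share of rises, 9 of 12 subunits in each genotype and no fall. Among all genes tested, 29.3% rose and 28.1% fell in WT, and 28.3% rose and 25.9% fell in mutant cells. The medians of the complex IV subunits were 0.27 and 0.34. The summed level was 666 and 632 CPM in WT controls, 762 and 802 in WT doxorubicin, 639 and 716 in mutant controls and 838 and 900 in mutant doxorubicin libraries. Most of this sum was Cox7b, at 425 and 390, 445 and 479, 406 and 462, and 518 and 552 CPM in the same order. Without mutant control A the mutant count was 5 of 12, and in WT it was at least 6 without any single library.

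Cox4i1, the ubiquitous isoform of the regulatory subunit IV, was at 52.3 and 50.7 CPM in WT controls, 90.3 and 89.9 in WT doxorubicin, 53.7 and 55.9 in mutant controls and 90.0 and 97.9 in mutant doxorubicin libraries. Treated and control libraries did not overlap. It rose by 0.81 ± 0.08 in WT and 0.78 ± 0.08 in mutant cells (edgeR adjusted p = 7.46e-09 and 1.59e-08), and its exons overlap those of Emc8 on the other strand. Cox8a, a small subunit with no overlapping exon, was at 6.61 and 8.19 CPM in WT controls, 13.7 and 12.9 in WT doxorubicin, 8.03 and 8.95 in mutant controls and 12.5 and 14.0 in mutant doxorubicin libraries. It rose by 0.84 ± 0.13 and 0.65 ± 0.13 (edgeR adjusted p = 6.72e-06 and 0.000177). Cox6b1, on the intermembrane space side, rose by 0.32 ± 0.08 and 0.39 ± 0.08 (edgeR adjusted p = 0.00278 and 0.000456).

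Cox6b2, the testis isoform of Cox6b1, had few counts but was higher after treatment. It had 10 and 7 counts in WT controls, 47 and 48 in WT doxorubicin, 0 and 9 in mutant controls and 42 and 36 in mutant doxorubicin libraries. The log2 fold change was 2.43 ± 0.47 in WT and 3.30 ± 0.55 in mutant cells (edgeR adjusted p = 0.000159 and 2.71e-05), values that depend on the low control counts. The mutant value was 2.33 without mutant control A and 8.49 without mutant control B, which leaves a control with 0 counts. The other tissue and condition isoforms stayed near 0, with at most 1 count in a library for Cox4i2, Cox8c and Ndufa4l2, at most 2 for Cox7a1 and Cox7b2, at most 4 for Cox6a2 and 0 in all 8 for Cox8b. Cox7c was lower in both treated groups without passing in either genotype alone (-0.36 ± 0.18 and -0.37 ± 0.19, edgeR adjusted p = 0.0863 and 0.104). Averaged over both genotypes it was called lower (log2 -0.36), the 1 complex IV subunit called so. It was at 3.46 and 3.70 CPM in WT controls, 2.72 and 2.85 in WT doxorubicin, 3.19 and 3.83 in mutant controls and 2.76 and 2.69 in mutant doxorubicin libraries.

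Smaller complex IV rises were less stable. In WT, Cox5a, Cox5b, Cox7a2, Cox7a2l and Cox7b changed by 0.22, 0.43, 0.20, 0.29 and 0.18, and each lost its call when either of at least 2 libraries was left out. For Cox5a these were WT control A, WT doxorubicin A and either mutant control (adjusted p = 0.338, 0.198, 0.0514 and 0.0516), and for Cox5b WT control A and WT doxorubicin A (0.171 and 0.0773). For Cox7a2 they were WT control A, WT control B and WT doxorubicin B (0.0502, 0.303 and 0.317). Cox7a2l, a factor that links complexes III and IV, lost it without WT control B or WT doxorubicin B (0.0800 and 0.0541), as did the X-linked Cox7b (0.289 and 0.199). In mutant cells Cox5a, Cox7a2 and Cox7b lost their calls without mutant control A (0.0508, 0.0715 and 0.0664). Cox6a1 (0.25 in the mutant) lost its call without either WT control, either mutant control or mutant doxorubicin B (0.0547 to 0.593).

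**Figure D3:**
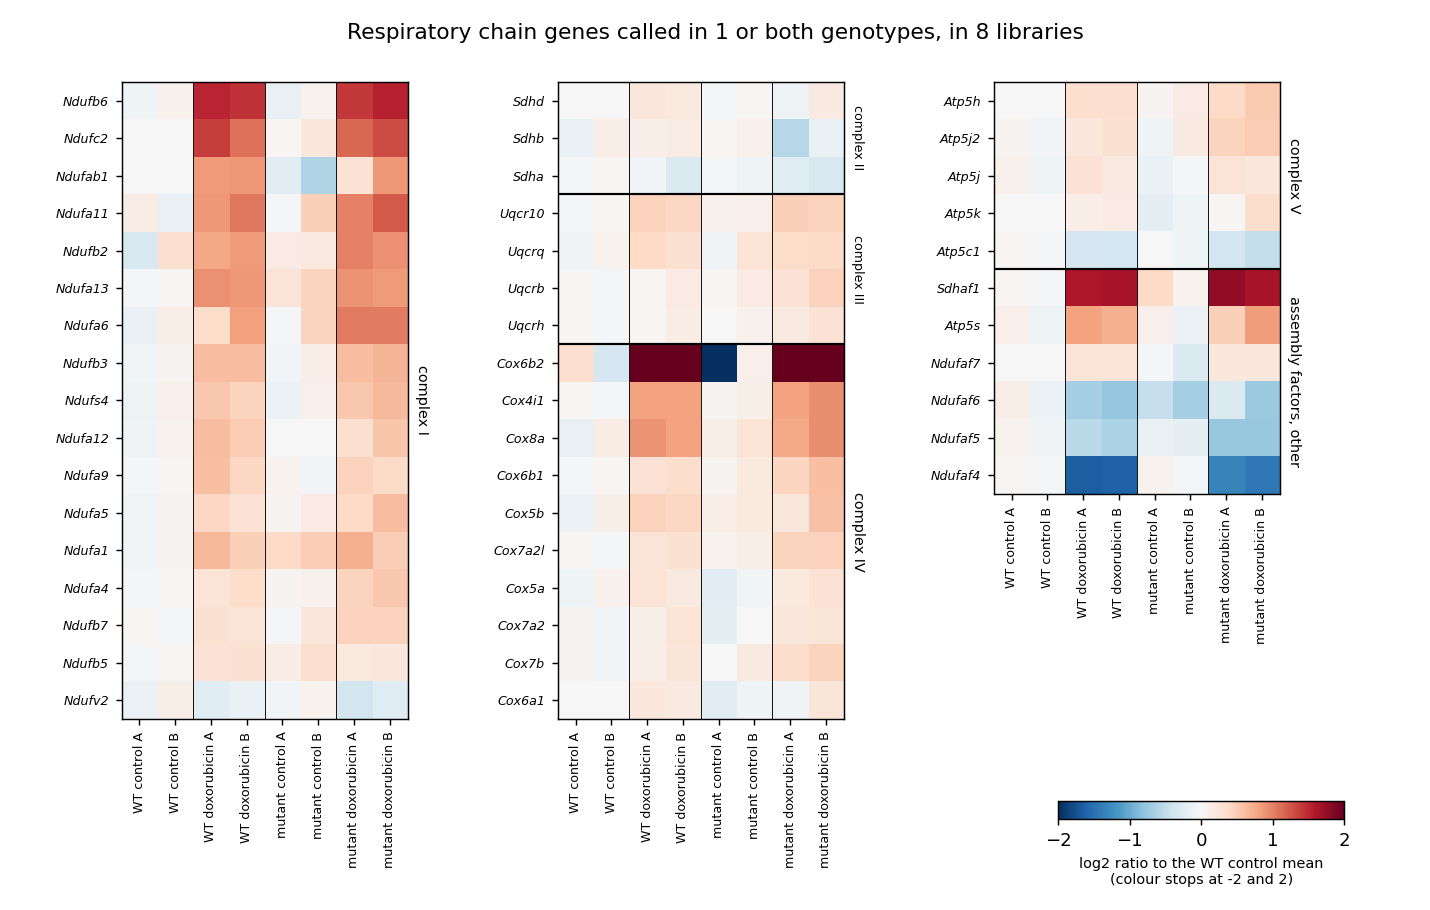
Log2 ratio to the WT control mean in the 8 libraries for the 45 genes called in 1 or both genotypes, grouped by complex and ordered by mean response; red is higher, blue is lower and colour stops at -2 and 2 (Cox6b2 had 0 counts in mutant control A). Genes were picked by their response, and the 4 doxorubicin columns are mostly red, with Ndufaf4, Ndufaf5 and Ndufaf6 blue at the bottom.

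Complex V, the ATP synthase, changed little in sum. Its 14 subunits totalled 714 and 737 CPM in WT controls, 749 and 733 in WT doxorubicin, 708 and 735 in mutant controls and 724 and 740 in mutant doxorubicin libraries. In WT cells 3 rose and 1 fell, in mutant cells 4 rose and 1 fell, and the medians were 0.11 and 0.08. The shares that rose were 21.4% and 28.6%, beside 29.3% and 28.3% of all genes. Without WT control B 1 rose in WT, without mutant control A 1 rose in the mutant, whose median was 0.01 without mutant control A and 0.15 without mutant control B. The fall was in Atp5c1, the rotor shaft (gamma) subunit of F1, which was at 40.4 and 38.6 CPM in WT controls, 31.1 and 30.8 in WT doxorubicin, 39.7 and 37.1 in mutant controls and 30.6 and 28.4 in mutant doxorubicin libraries. It fell by 0.35 ± 0.08 and 0.38 ± 0.09 on the log2 scale (edgeR adjusted p = 0.00117 and 0.000729), and treated and control libraries did not overlap. The catalytic beta subunit Atp5b was at 86.9 and 93.9 CPM in WT controls and 87.8 and 83.8 in WT doxorubicin, and changed by -0.08 ± 0.08 in WT and -0.07 ± 0.08 in mutant cells.

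The genes called higher in complex V were Atp5h, Atp5j2, Atp5j and Atp5k. Atp5h, of the stator stalk, rose by 0.33 ± 0.10 in WT and 0.36 ± 0.10 in mutant cells (edgeR adjusted p = 0.00566 and 0.00404), the latter not without mutant control A or mutant doxorubicin B (0.0630 and 0.0601). Atp5j2 rose by 0.42 ± 0.10 in mutant cells (edgeR adjusted p = 0.000708) and by 0.26 ± 0.09 in WT (0.0218), the latter not without WT control B or WT doxorubicin B (0.165 and 0.111). Atp5j, whose exons overlap those of Gabpa, was called at 0.24 and 0.31 (edgeR adjusted p = 0.0448 and 0.0120). Its WT call was lost without WT control B, WT doxorubicin A or either mutant control (0.346, 0.192, 0.0503 and 0.0506), and its mutant call without mutant control A or mutant doxorubicin A (0.108 and 0.0652). Atp5k was called in mutant cells only (0.33, edgeR adjusted p = 0.0441) and lost the call without either WT control, either mutant control or mutant doxorubicin B (0.0533 to 0.457).

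The genes for the membrane-embedded c subunit, whose ring turns with the proton flow, did not pass. Atp5g3 was at 147 and 153 CPM in WT controls, 148 and 145 in WT doxorubicin, 137 and 144 in mutant controls and 134 and 140 in mutant doxorubicin libraries, with changes of -0.04 ± 0.07 and -0.03 ± 0.07. Atp5g1 had 23 to 41 counts per library and changed by -0.23 ± 0.31 and -0.41 ± 0.32. Atp5s, a coupling factor that is not a subunit, was at 3.46 and 2.99 CPM in WT controls and 5.66 and 5.32 in WT doxorubicin. It rose by 0.77 ± 0.17 in WT and 0.68 ± 0.18 in mutant cells (edgeR adjusted p = 0.000574 and 0.00260), the latter not without mutant doxorubicin B (0.0691).

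The same fit was used to ask whether the mutation altered these genes. None of the 84 passed for a difference between the mutant and WT responses (edgeR; 0.0734% of all genes passed), and 4 had an unadjusted p under 0.05, namely Sdhb (-0.55 ± 0.22), Ndufb5 (-0.32 ± 0.14), Ndufa13 (-0.37 ± 0.17) and Ndufaf4 (0.23 ± 0.11). DESeq2 and limma-voom also called 0. With 2 libraries per group, differences of these sizes did not pass. Among 84 genes, some are expected at an unadjusted p under 0.05 without any difference. The share of all genes at that level is not given here. Between mutant and WT controls none passed (edgeR, DESeq2 and limma-voom), where 2.75% of all genes were higher and 3.17% lower. Under doxorubicin, Uqcrb, a complex III subunit, was called higher in the mutant, where 3.92% of all genes were higher and 3.82% lower. It was at 51.7 and 56.4 CPM in WT doxorubicin and 61.5 and 68.9 in mutant doxorubicin libraries (log2 0.27 ± 0.08, edgeR adjusted p = 0.0493). That call was lost by DESeq2 and limma-voom, and in edgeR when any control library, WT doxorubicin A or mutant doxorubicin B was left out (adjusted p = 0.0639 to 0.382). The X-linked genes Ndufa1, Ndufb11 and Cox7b passed in neither genotype comparison.

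Transcript length moved with these responses. Of the 42 genes with the shorter transcripts (up to the median of 810 bases), 21 rose and none fell in WT, and 22 rose and none fell in mutant cells. Of the 42 longer ones, 11 rose and 4 fell in WT, and 11 rose and 6 fell in mutant cells. Of all genes tested, 29.3% rose and 28.1% fell in WT, and 28.3% and 25.9% in mutant cells. Those shares were not split by length. Spearman's rho between length and response was -0.20 in WT and -0.31 in mutant cells across the 84 genes, and -0.06 in both across 11437 of all genes tested. The part of length in the result was not tested.

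Of 19 regulators of the respiratory chain tested, 8 rose and 8 fell in WT (42.1% each way), and 7 rose and 8 fell in mutant cells (36.8% and 42.1%), while of all genes tested 29.3% rose and 28.1% fell in WT, and 28.3% and 25.9% in mutant cells. Nrf1, the transcription factor whose motif is described above, was at 26.3 and 23.7 CPM in WT controls, 3.28 and 2.85 in WT doxorubicin, 32.6 and 26.7 in mutant controls and 4.24 and 4.59 in mutant doxorubicin libraries. It fell 8.15-fold in WT and 6.71-fold in mutant cells (log2 -3.03 ± 0.13 and -2.75 ± 0.13, edgeR adjusted p = 4.82e-14 and 1.67e-13). Also lower were Pprc1, a PGC-1 family coactivator (-1.35 and -1.48), the cofactor Hcfc1 (-1.19 and -1.02) and, by less, Gabpa, the DNA-binding GABP subunit (-0.29 and -0.35). The Gabpa call in WT was lost without WT control A (edgeR adjusted p = 0.0569). Tfam, which packages and transcribes mitochondrial DNA, was at 117 and 114 CPM in WT controls and 92.8 and 99.0 in WT doxorubicin, a fall of 0.27 ± 0.07 (edgeR adjusted p = 0.00331), and changed by -0.15 ± 0.07 in mutant cells (0.0808). Without WT control B 4 regulators rose in WT, and without mutant control A 4 fell in the mutant.

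Other activators rose. Ppargc1a, the coactivator PGC-1 alpha, had 11 and 4 counts in WT controls, 132 and 110 in WT doxorubicin, 17 and 18 in mutant controls and 74 and 104 in mutant doxorubicin libraries. It rose by 3.96 ± 0.35 and 2.56 ± 0.31 on the log2 scale (edgeR adjusted p = 3.22e-09 and 3.46e-07), and the difference of -1.40 ± 0.54 did not pass (0.704). Its partner Esrra, an orphan nuclear receptor, was at 1.56 and 1.12 CPM in WT controls, 4.37 and 4.54 in WT doxorubicin, 1.37 and 1.22 in mutant controls and 4.40 and 4.47 in mutant doxorubicin libraries. It rose by 1.75 ± 0.20 and 1.77 ± 0.21 (edgeR adjusted p = 2.00e-07 and 2.93e-07). Polrmt, the mitochondrial RNA polymerase, rose by 1.16 ± 0.30 in WT (edgeR adjusted p = 0.00218) and changed by 0.14 ± 0.32 in mutant cells, and that difference did not pass (0.779).

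Electron carriers and coenzyme Q genes showed 4 rises and 5 falls of 21 in WT (19.0% and 23.8%), and 4 and 4 in mutant cells (19.0% each), all below the shares of all genes just given. Cycs, somatic cytochrome c, was at 10.3 and 9.36 CPM in WT controls, 13.9 and 13.6 in WT doxorubicin, 9.13 and 9.76 in mutant controls and 12.2 and 14.4 in mutant doxorubicin libraries. It rose by 0.49 ± 0.11 and 0.50 ± 0.12 (edgeR adjusted p = 0.000925 and 0.00118). Etfdh, which feeds electrons from fatty acid oxidation into coenzyme Q, rose 3.34-fold and 3.40-fold (log2 1.74 ± 0.10 and 1.76 ± 0.10). Dhodh, the pyrimidine synthesis enzyme that reduces coenzyme Q, fell by 1.29 ± 0.27 and 2.11 ± 0.32 on the log2 scale, and Pdss1, of the coenzyme Q side chain, fell by 0.99 ± 0.18 and 0.79 ± 0.18. The falls dropped to 3 without WT control B in WT, and to 2 without mutant doxorubicin B in the mutant.

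Of 39 assembly factors outside the symbol rule, 10 rose and 8 fell in WT (25.6% and 20.5%) and 11 rose and 5 fell in mutant cells (28.2% and 12.8%), at or below the same shares of all genes. Acad9, of complex I assembly, rose by 1.16 ± 0.12 and 1.14 ± 0.12, Higd1a by 1.14 ± 0.10 and 1.04 ± 0.11, and Ttc19, of complex III, by 0.98 ± 0.08 and 0.93 ± 0.08. Bcs1l, the chaperone that inserts the Rieske protein Uqcrfs1, was at 2.08 and 2.02 CPM in WT controls, 0.364 and 0.908 in WT doxorubicin, 1.82 and 2.20 in mutant controls and 0.640 and 0.791 in mutant doxorubicin libraries. It fell 3.18-fold in WT and 2.80-fold in mutant cells (edgeR adjusted p = 0.000136 and 0.000673). The inner-membrane insertase Oxa1l fell by 0.94 ± 0.19 in WT and 0.67 ± 0.20 in mutant cells, the latter not without mutant doxorubicin A (edgeR adjusted p = 0.0644). The WT falls were 5 without WT control A, WT control B or WT doxorubicin A, and the mutant rises 7 without mutant doxorubicin B.

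Counts in neighbouring mitochondrial groups are set beside those of the chain subunits, of which 30 of 74 rose and 1 fell in WT and 30 rose and 4 fell in mutant cells. Among 21 carrier, import and membrane dynamics genes, 2 rose and 13 fell in WT and 3 rose and 9 fell in mutant cells, with medians of -0.32 and -0.30. Tomm70a, an import receptor, fell by 0.87 ± 0.08 and 0.84 ± 0.08 on the log2 scale, and the import motor chaperone Hspa9 by 0.75 ± 0.07 and 0.80 ± 0.07. Of 75 mitochondrial ribosome genes, 9 rose and 21 fell in WT and 12 rose and 17 fell in mutant cells, with medians of -0.10 and 0.02. Of 21 citric acid cycle and pyruvate dehydrogenase genes, 5 rose and 4 fell in each genotype (23.8% and 19.0%). For each of these groups the shares of all genes were 29.3% higher and 28.1% lower in WT, and 28.3% and 25.9% in mutant cells. Pdk4, a kinase that inhibits pyruvate dehydrogenase, rose by 3.48 ± 0.08 and 3.93 ± 0.08, and Pdha1, a subunit of that enzyme, fell by 0.83 ± 0.08 and 0.98 ± 0.08.

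These counts depended in part on single libraries. For the subunits, the mutant rises were 19 without mutant control A, the WT falls 2 without WT control A or WT doxorubicin A and 3 without WT doxorubicin B, and the mutant falls 2, 1 and 2 without mutant control A, mutant control B and mutant doxorubicin A. For carriers and import, the WT falls were 8 without WT control B, the WT rises 1 without WT control A, WT doxorubicin A or WT doxorubicin B, and the mutant rises 1 without mutant control B or mutant doxorubicin B. For the mitochondrial ribosome, the mutant rises were 7 without mutant control A or mutant doxorubicin B, and the mutant falls 10 without mutant control B and 9 without mutant doxorubicin A. For the citric acid cycle, the mutant falls were 2, 1 and 2 without mutant control A, mutant control B and mutant doxorubicin A.

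**Figure D4:**
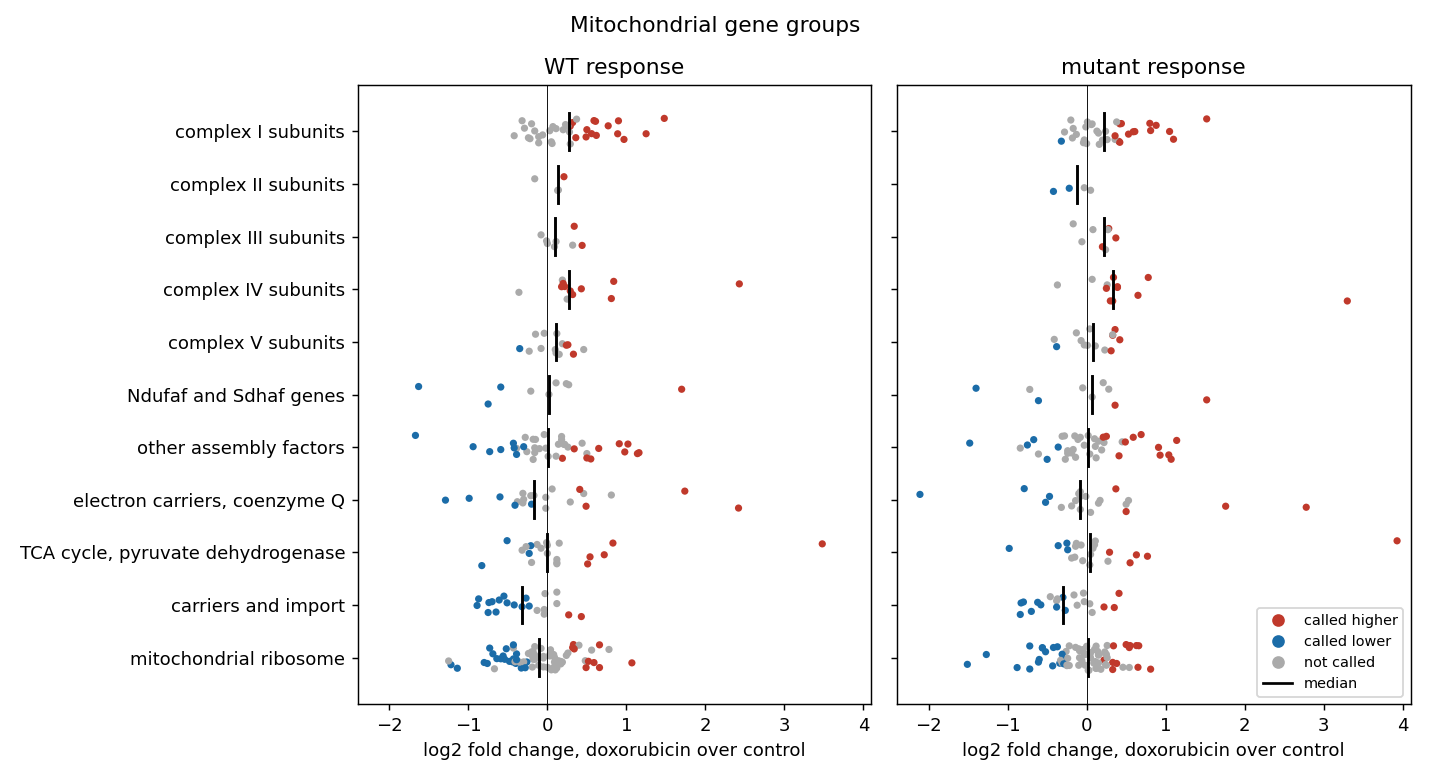
Log2 fold change with doxorubicin for each gene of the respiratory chain and of 5 further mitochondrial groups, in WT (left) and mutant (right) cells; red is called higher, blue lower, grey not called, and black bars are medians. Medians of complex I and complex IV subunits lie above 0 (0.27 and 0.27 in WT), and that of carriers and import below it (-0.32 in WT).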

How the data were processed

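RNA of 8 libraries was sequenced. Per the labels, the kit was for exome capture while the assay was 3′ sequencing, and which applied was not resolved. The authors deposited raw counts, 1 value per gene symbol and library. Per the submitters' processing notes, the authors used Bowtie2, HTSeq and build mm9, and annotation and strand setting are not given in the sources used here.

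The counts were tested in R 4.3.3 with edgeR 4.0.16 (TMM factors, filterByExpr with a minimum count of 10, 1 coefficient per group over all 8 libraries, quasi-likelihood F-test, two-sided, Benjamini-Hochberg over 12255 genes, threshold 0.05), after a check on simulated counts. Atp5sl did not pass the filter. Alternatives were DESeq2 1.42.0, limma-voom (limma 3.58.1), other scalings, filters and thresholds, a replicate block and leaving out each library. Standard errors are the log2 fold change divided by the root of F. Totals of 25482805 to 33285171 counts per library set the counting precision. Exon overlaps, transcript lengths and promoters came from GRCm38 annotations, matched by symbol.

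Genes named are, per complex and response, up to 4 called per direction with the largest change, every assembly factor, every tissue isoform, the c-subunit genes, members called between genotypes and those at the edge of the count rule, and of each further list up to 4 per direction with Nrf1, Gabpa, Tfam and Cycs. Results of 1 member are not reported here. A few unchanged subunits and calls that rest on single libraries were named after their values were seen. Members and lists were chosen with earlier results of these data known.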

Additional observations from a re-analysis of the deposited data

Results flagged for a closer look

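For 2 complex I genes, in CPM, both WT doxorubicin libraries were above both WT controls while both mutant doxorubicin libraries were below both mutant controls. With 2 libraries per group such a pattern can arise by chance. The share of all genes that show it is not given here. Ndufaf3, an assembly factor, had 8 and 12 counts in WT controls, 11 and 13 in WT doxorubicin, 18 and 11 in mutant controls and 7 and 8 in mutant doxorubicin libraries. Its CPM values were 0.297 and 0.352, 0.364 and 0.407, 0.618 and 0.373, and 0.280 and 0.316 in the same order. The mutant response minus the WT response was -0.96 ± 0.70 on the log2 scale and did not pass (edgeR adjusted p = 0.991). Ndufs3, a core subunit, was at 2.60 and 2.29 CPM in WT controls, 3.51 and 2.79 in WT doxorubicin, 2.50 and 2.64 in mutant controls and 2.12 and 2.45 in mutant doxorubicin libraries. Its difference of -0.54 ± 0.29 did not pass either (edgeR adjusted p = 0.927).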

How the results depend on the processing

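Of the genes called in the main fit, 22 of 36 in WT and 21 of 39 in mutant cells were called in every alternative, and none of the called genes changed sign. The number of genes called lower in WT was 4, and it was 8 at an adjusted p under 0.10, 7 with upper-quartile factors, 2 with a filter of 5 CPM in 2 libraries (fewer genes tested) and 1 among subunits only. Under doxorubicin, 1 gene was called higher in the mutant, 3 at an adjusted p under 0.10, 2 with upper-quartile factors, and 0 with DESeq2, limma-voom or only the 4 libraries compared. The number called lower was 0, and 1 at an adjusted p under 0.10 or with no filter. The cause of these shifts was not tested.

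Leaving out each library gave 23 to 32 higher and 4 to 6 lower in WT, 22 to 32 higher and 3 to 7 lower in the mutant, 32 to 38 higher and 6 to 9 lower on average over both genotypes (39 and 8 in the main fit), and 0 to 4 higher and 0 to 1 lower between genotypes under doxorubicin. For the difference of responses and between controls it gave 0 to 0. Median log2 changes ranged from 0.14 to 0.20 in WT, 0.15 to 0.25 in the mutant, 0.14 to 0.20 on average, -0.05 to 0.08 for the difference, -0.02 to 0.10 between controls and -0.02 to 0.04 under doxorubicin. The library left alone in a group was assumed to vary like the others. Of the genes not called in the main test, 11 of 48 in WT and 17 of 45 in mutant cells changed sign in 1 or more alternatives. Among the assembly factors these were Sdhaf2 in WT (0.02; -0.03 with upper-quartile factors, -0.13 without WT control A, -0.08 without WT doxorubicin A and up to 0.19 without WT control B), Ndufaf2 in the mutant (-0.05; 0.12 without mutant control B and -0.20 without mutant control A) and Ndufaf6 in the mutant (0.07; -0.04 without mutant control B, -0.19 without mutant doxorubicin A and up to 0.29 without mutant doxorubicin B).

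A replicate block on the library letter gave 32 higher and 4 lower in WT, 35 and 7 in the mutant and the main count in the other comparisons. Over all genes tested, A minus B deviations correlated at -0.02 to 0.03 between groups. With 1 difference per group, this cannot show whether libraries of the same letter share an embryo, culture or batch. Limits are 2 libraries per group with 4 residual degrees of freedom, 30 of 85 genes with an exon overlap on either strand, and counts under 20 per library for Ndufaf3 and Atp5sl.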
